A study of Mus musculus with 10 samples.

Results

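The genes described here are 10 genes of glucose production and of the pyruvate switch in mouse liver: Pck1, Pck2, Pcx, Fbp1, G6pc, Slc37a4, Ppargc1a, Pdk1, Pdk2 and Pdk4. They were taken by their gene symbols, and all 10 were found among the 16697 gene entries of an RNA-Seq table. The question put to the libraries was whether active FOXO1 alters gene expression in c-MYC tumors. Normal liver (NL, n = 4) was compared with tumors induced by c-MYC together with the empty pT3-EF1α vector (c-MYC, n = 3) and with tumors induced by c-MYC together with FOXO1AAA (c-MYC/FOXO1AAA, n = 3). FOXO1AAA is a MYC-tagged FOXO1 that AKT cannot inactivate. The plasmids were delivered by hydrodynamic tail vein injection, which transfects hepatocytes, with the sleeping beauty transposase, and FOXO1AAA was driven by the EF1α promoter, which is active in most cell types. The tumors are thus those of injected wild-type mice, and the transgenes are not limited to hepatocytes by their promoter. The labels give C57BL/6 as the strain of all 10 samples, whereas the extraction protocol names FVB and the methods FVB/N for the normal livers. The age of the mice at collection and the sex of each sample are not given in the sources used here, and the mice were euthanized when moribund. The descriptions given by the study differ on whether the c-MYC mice also received MCL1.

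Gluconeogenesis is the making of glucose from lactate, alanine and glycerol, by which the fasting liver supplies the body. Pyruvate carboxylase makes oxaloacetate from pyruvate, phosphoenolpyruvate carboxykinase turns it into phosphoenolpyruvate, and fructose bisphosphatase and the glucose 6-phosphatase system complete the path. The pyruvate dehydrogenase kinases inhibit the competing entry of pyruvate into the citrate cycle. In normal liver, insulin acting through AKT keeps FOXO1 out of the nucleus, and in fasting FOXO1 with the coactivator PGC-1α, the product of Ppargc1a, raises transcription of G6pc and Pck1. Pdk4 is a known FOXO1 target.

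The promoters of G6pc, Pck1 and Pdk4 are shown because these are the genes best known as FOXO1 targets and because they differed from each other in the tumors. Each line gives the 250 bases before the RefSeq start of the gene (GRCm38.p6), 5′ to 3′ on the strand of the gene. Capitals mark a motif that was searched on both strands.
G6pc (chr11:101367466-101367715, plus strand): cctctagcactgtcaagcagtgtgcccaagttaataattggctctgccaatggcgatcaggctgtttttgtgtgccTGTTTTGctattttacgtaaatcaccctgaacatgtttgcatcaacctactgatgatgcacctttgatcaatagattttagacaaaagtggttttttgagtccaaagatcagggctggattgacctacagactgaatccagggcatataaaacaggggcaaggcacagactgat
Pck1 (chr2:173152823-173153072, plus strand): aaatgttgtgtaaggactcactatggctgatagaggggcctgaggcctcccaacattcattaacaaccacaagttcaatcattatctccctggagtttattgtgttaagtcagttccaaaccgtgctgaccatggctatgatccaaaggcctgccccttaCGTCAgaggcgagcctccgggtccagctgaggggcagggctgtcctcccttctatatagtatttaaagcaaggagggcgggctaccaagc
Pdk4 (chr6:5496279-5496528, minus strand): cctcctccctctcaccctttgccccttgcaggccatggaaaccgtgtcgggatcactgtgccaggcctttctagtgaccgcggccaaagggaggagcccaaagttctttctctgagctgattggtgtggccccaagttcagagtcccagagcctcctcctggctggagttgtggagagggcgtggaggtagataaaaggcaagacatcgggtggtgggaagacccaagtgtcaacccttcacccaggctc
In the exact form GTAAACA, the FOXO motif was found in 0 of the 10 genes in any of their windows. It was found in 3.17% of 32851 RefSeq promoter windows of the same length. Other forms of FOXO site were not counted under this name, and the insulin response motif was counted apart from it. The insulin response motif CAAAACA, whose reverse complement is capitalized in G6pc, was found in G6pc, 174 bases before the start, and in Pck2, 159 bases before it, against 5.56% of windows. The cAMP response half-site TGACG, whose reverse complement is capitalized in Pck1, was found in Pck1, Slc37a4 and Ppargc1a, against 17.8% of windows. The E-box CACGTG, which MYC proteins can bind, was found in Pcx and Pdk2, in 1 of the 2 windows of each, against 6.02% of windows. A gene was counted if any of its 1 to 3 windows held the motif, whereas the percentages are of single windows. None of these 4 motifs was found in the Pdk4 window. The motifs do not overlap in the windows shown, and a match of letters is not a binding site.

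The libraries held between 13.12 and 20.55 M reads (M, mega) in listed genes, and levels are given in FPKM, which scale fragments to gene length and to the size of the library. The 10 most abundant genes took 19.1% to 21.2% of the reads in NL, 8.85% to 9.3% in c-MYC and 6.91% to 8.01% in c-MYC/FOXO1AAA. The scaling factors of the authors were 0.649 to 0.684 in NL, 1.26 to 1.29 in c-MYC and 1.45 to 1.5 in c-MYC/FOXO1AAA, so scaling and group cannot be told apart. Foxo1 itself, counted together with any transcript of the transgene that its reads cover, averaged 7.12 ± 0.532 FPKM (SD, n = 4) in normal liver, 5.62 ± 0.721 FPKM (SD, n = 3) in c-MYC tumors and 83.1 ± 12.8 FPKM (SD, n = 3) with FOXO1AAA, as the labels call for. The 44 markers of mature hepatocytes summed to 56600 to 58600 FPKM in NL, 1080 to 1340 in c-MYC and 494 to 717 in c-MYC/FOXO1AAA. By the test described below, all 44 were lower in both kinds of tumor than in NL. Of all genes tested, 23.6% were lower in c-MYC and 26.6% in c-MYC/FOXO1AAA. Among the markers, Cyp4a10 and Rdh16 reached 1 FPKM in NL alone and so had to be lower. Of the 44 markers, Hsd3b5 had 0 reads in all c-MYC libraries, and none was at 0 in all libraries of NL or c-MYC/FOXO1AAA. The libraries are bulk tissue, in which fewer cells of a type and less RNA per cell cannot be told apart.

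Calls are from limma with a threshold of 1.5-fold and a Benjamini-Hochberg adjusted p under 0.05 over 14017 genes. A difference between the tumor groups is given as c-MYC/FOXO1AAA relative to c-MYC. Fold changes are on the log2 scale of the deposited values, which contain a prior count and therefore understate the change of low genes. In c-MYC versus NL, 1 of the 10 genes was higher, 7 were lower and 2 did not pass, where 48.1% of all genes tested were called (24.5% higher and 23.6% lower). In c-MYC/FOXO1AAA versus c-MYC, 3 were higher, 2 were lower and 5 did not pass, where 28.7% of all genes were called (15.9% higher and 12.7% lower). In c-MYC/FOXO1AAA versus NL, 2 were higher, 7 were lower and 1 did not pass, where 57.8% of all genes were called (31.2% higher and 26.6% lower). The median log2 fold changes of the 10 genes were -3.83, 0.35 and -3.47 in the 3 comparisons, beside 0.08, 0.03 and 0.21 over all genes. The groups did not overlap for 9, 7 and 9 of the 10 genes, against 73.9%, 63.4% and 80.1% of all genes. The comparisons share libraries and are not independent. All 10 genes passed the filter on low values, Ppargc1a through its NL libraries alone. It therefore had to be lower in both tumor groups, and it is among the 7 lower genes in each comparison with NL.

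**Figure D1:**
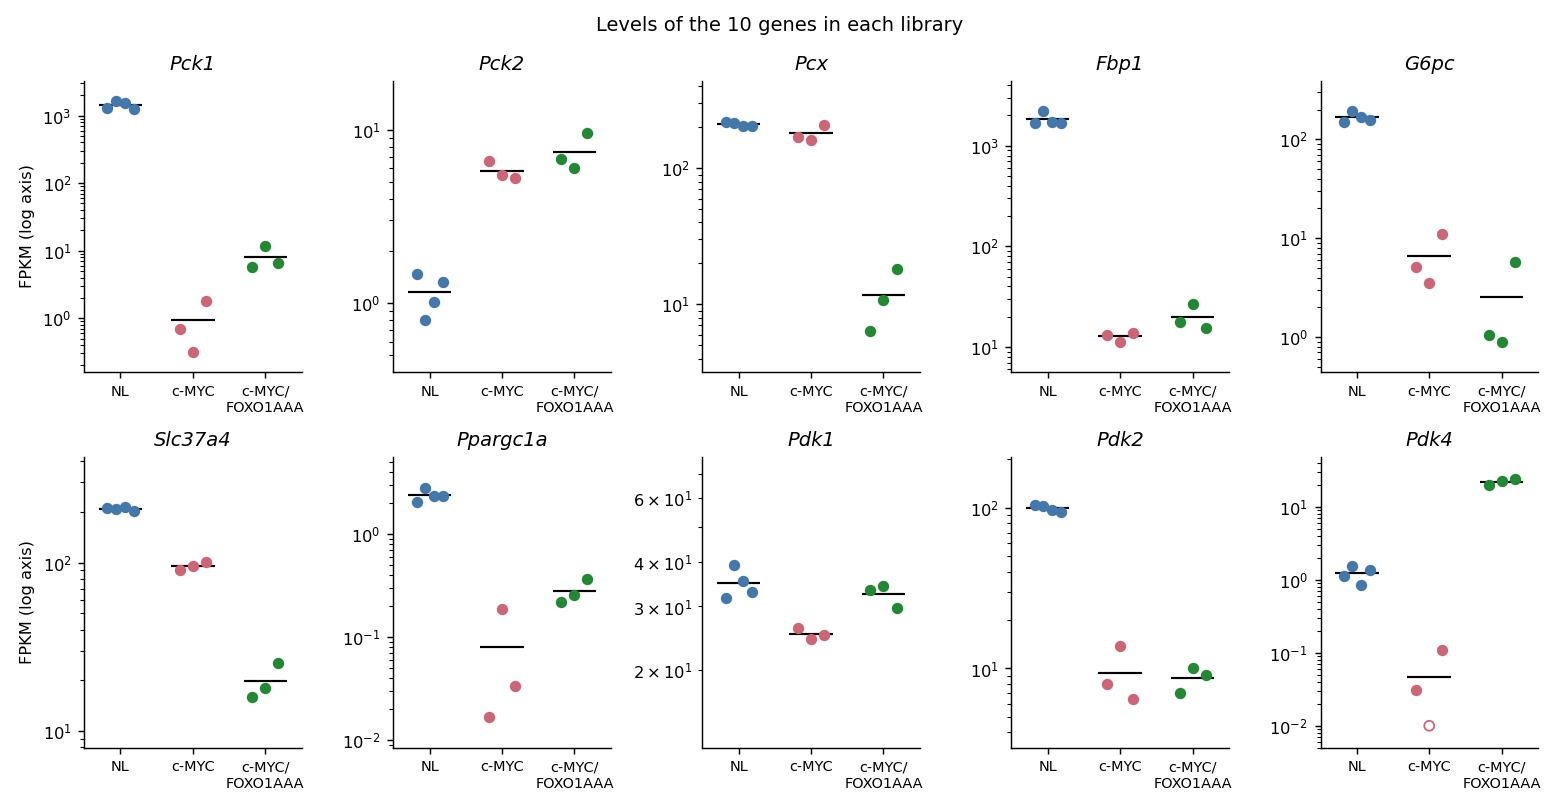
Level of each of the 10 genes in each library, in FPKM on a log axis that differs between panels, with 4 NL, 3 c-MYC and 3 c-MYC/FOXO1AAA libraries as points and the arithmetic mean of a group as a line. The open circle marks c-MYC 2, which had 0 reads of Pdk4 and is drawn at 0.01, and the c-MYC/FOXO1AAA points of Pdk4 all lie above those of NL while those of Pcx lie below all others.

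Pck1, the cytosolic phosphoenolpyruvate carboxykinase and a major control point of the path, was nearly lost in c-MYC tumors and was low in c-MYC/FOXO1AAA tumors. The gene lies on GRCm38 chr2:173153048-173159273 on the plus strand. Its level was 1280, 1620, 1510 and 1270 FPKM in NL 1 to 4, 0.696, 0.319 and 1.8 in c-MYC 1 to 3, and 5.75, 11.7 and 6.5 in c-MYC/FOXO1AAA 1 to 3. The 3 groups did not overlap, and the c-MYC values rested on 34, 16 and 88 reads. The log2 fold change was -10.8 (± 0.45 SE, adjusted p = 2.36e-08) in c-MYC versus NL and, between the tumor groups, 3.27 (± 0.48 SE, adjusted p = 0.000778). The c-MYC/FOXO1AAA mean of 7.97 FPKM ± 3.22 (SD, n = 3) was 0.56% of the NL mean, and the log2 fold change against NL was -7.54 (± 0.45 SE, adjusted p = 1.99e-07). Without c-MYC 3, the c-MYC mean of 0.939 FPKM became 0.507, and the log2 fold changes became -11.4 against NL and 3.88 between the tumor groups. Without c-MYC 2, the change against NL was -10.2. The difference between the tumor groups changed sign and was not called when the share of normal liver read from hepatocyte markers was added to the c-MYC libraries, with values of -0.27 (adjusted p = 1) for the median share and -0.67 (adjusted p = 0.798) for the largest.

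Pck2, which makes phosphoenolpyruvate inside mitochondria, went the other way and was higher in both kinds of tumor. The gene (chr14:55540266-55551242, plus strand) was at 1.47, 0.803, 1.02 and 1.33 FPKM in NL, 6.64, 5.47 and 5.28 in c-MYC and 6.76, 6.0 and 9.54 in c-MYC/FOXO1AAA. All tumor libraries lay above all NL libraries, and the 2 tumor groups overlapped. Pck2 changed by 2.33 (± 0.24 SE, adjusted p = 4.81e-05) on the log2 scale in c-MYC versus NL and 2.67 (± 0.24 SE, adjusted p = 8.76e-06) in c-MYC/FOXO1AAA versus NL. Between the tumor groups it was 0.33 with a 95% interval of -0.23 to 0.90 (adjusted p = 1).

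The 2 carboxykinases shared their summed level unequally. Per length, Pck2 made up 0.0494% to 0.115% of the summed FPKM of both genes in NL, 74.6% to 94.5% in c-MYC and 34% to 59.5% in c-MYC/FOXO1AAA, with no overlap between groups as measured. With the median share of normal liver that the hepatocyte markers gave (0.577% of the NL level) added to each c-MYC library, Pck2 took 34.6% to 42.8% in c-MYC, and the tumor groups overlapped. The sum itself was 1280 to 1620 FPKM in NL, 5.79 to 7.34 in c-MYC and 12.5 to 17.7 in c-MYC/FOXO1AAA.

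Pcx, pyruvate carboxylase, which commits pyruvate to oxaloacetate, was near the NL level in c-MYC tumors and low in c-MYC/FOXO1AAA tumors. The gene (chr19:4510472-4621752, plus strand) was at 219, 216, 203 and 203 FPKM in NL, 171, 162 and 209 in c-MYC and 6.37, 10.8 and 18.1 in c-MYC/FOXO1AAA. The value of c-MYC 3 lay within the NL range, and all c-MYC/FOXO1AAA libraries lay far below both other groups. The log2 fold change in c-MYC versus NL was -0.23 with a 95% interval of -0.84 to 0.38 (adjusted p = 1), and its sign turned when libraries were scaled to the same FPKM total or by quantiles. Between the tumor groups it was -4.06 (± 0.29 SE, adjusted p = 3.86e-06), and versus NL -4.29 (± 0.27 SE, adjusted p = 4.08e-07). The c-MYC/FOXO1AAA mean of 11.8 FPKM ± 5.95 (SD, n = 3) was 5.59% of NL, against 85.8% for the c-MYC mean.

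Fbp1, the liver fructose bisphosphatase, fell to near 1% of normal liver in both kinds of tumor. The gene (chr13:62864753-62888282, minus strand) was at 1680, 2200, 1730 and 1690 FPKM in NL, 13.2, 11.3 and 13.8 in c-MYC and 17.8, 26.8 and 15.4 in c-MYC/FOXO1AAA. Each c-MYC/FOXO1AAA library lay above each c-MYC library, and the group means were at 0.699% and 1.10% of NL. NL 2 stood above the other NL libraries. Fbp1 changed by -7.14 (± 0.18 SE, adjusted p = 6.59e-10) on the log2 scale in c-MYC versus NL and -6.53 (± 0.18 SE, adjusted p = 1e-09) in c-MYC/FOXO1AAA versus NL. Between the tumor groups it was 0.61 with a 95% interval of 0.18 to 1.03, and it did not pass the 1.5-fold threshold (adjusted p = 0.932).

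G6pc, the catalytic subunit of glucose 6-phosphatase, was low in all tumors and was not higher with FOXO1AAA. The gene (chr11:101367561-101377903, plus strand) was at 151, 194, 167 and 156 FPKM in NL, 5.12, 3.5 and 11.0 in c-MYC and 1.06, 0.888 and 5.72 in c-MYC/FOXO1AAA. The third c-MYC/FOXO1AAA library lay within the c-MYC range and the other 2 lay below it. The log2 fold change in c-MYC versus NL was -4.82 (± 0.58 SE, adjusted p = 6.61e-05). Between the tumor groups it was -1.69 with a 95% interval of -3.07 to -0.32, which did not pass (adjusted p = 0.158). Without c-MYC/FOXO1AAA 3 it was -2.53 and passed (adjusted p = 0.00181). That library also moved the group mean, which was 2.56 FPKM ± 2.74 (SD, n = 3) with it and 0.974 without it, and the change against NL, which was -6.52 (± 0.58 SE, adjusted p = 3.94e-06) with it and -7.35 without it. Without c-MYC 3, the c-MYC mean of 6.55 FPKM became 4.31.

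Slc37a4, the transporter that carries glucose 6-phosphate to G6pc in the endoplasmic reticulum, was lower in c-MYC tumors and lower again in c-MYC/FOXO1AAA tumors. The gene (chr9:44396852-44402968, plus strand) was at 210, 209, 213 and 203 FPKM in NL, 90.9, 95.2 and 101 in c-MYC and 15.9, 18.1 and 25.4 in c-MYC/FOXO1AAA. The 3 groups did not overlap. The log2 fold change in c-MYC versus NL was -1.13 (± 0.14 SE, adjusted p = 0.00354), a call that was lost with a threshold of 2-fold and with 2 of the 3 other scalings. With FOXO1AAA it fell by a further 2.3 (± 0.15 SE, adjusted p = 3.41e-06), and the change versus NL was -3.42 (± 0.14 SE, adjusted p = 1.42e-08).

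Ppargc1a, the coactivator PGC-1α of fasting and of mitochondrial genes, was a low gene in all groups. The gene (chr5:51454250-51567726, minus strand) was at 2.07, 2.82, 2.34 and 2.36 FPKM in NL, 0.0169, 0.189 and 0.0337 in c-MYC and 0.22, 0.259 and 0.363 in c-MYC/FOXO1AAA. The groups did not overlap, but the c-MYC values rested on 2, 23 and 4 reads and those of c-MYC/FOXO1AAA on 35, 50 and 46. Ppargc1a changed by -5.05 (± 0.52 SE, adjusted p = 1.56e-05) on the log2 scale in c-MYC versus NL and -3.04 (± 0.52 SE, adjusted p = 0.000871) in c-MYC/FOXO1AAA versus NL. Since it passed the filter on low values through NL alone, it had to be lower in both tumor groups. The tumor groups differed by 2.02 (± 0.55 SE, adjusted p = 0.0472), a call lost in 19 of 25 alternatives. It was lost when any single library other than c-MYC 2 was left out, with adjusted p from 0.0583 without NL 2 to 0.181 without c-MYC 1. Without c-MYC 2 it held (adjusted p = 0.00054), the c-MYC mean of 0.0798 FPKM became 0.0253, and the log2 fold changes became -5.81 against NL and 2.78 between the tumor groups.

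**Figure D2:**
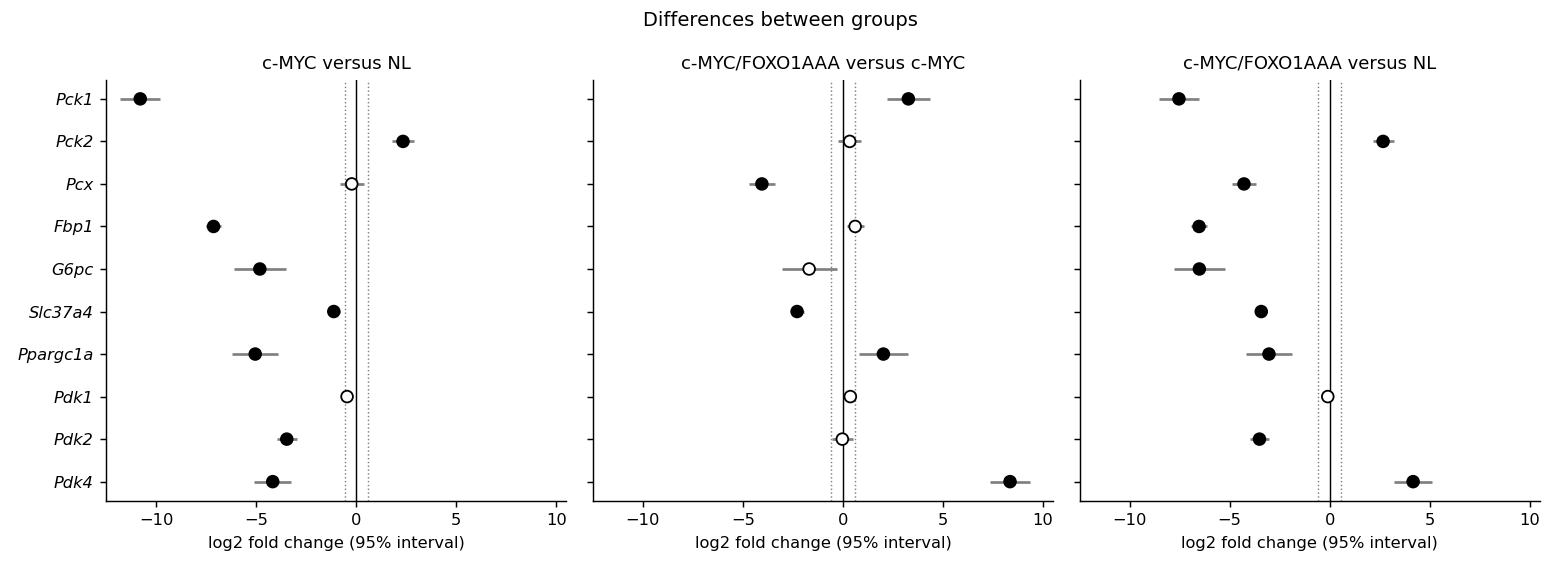
Log2 fold change of each of the 10 genes in the 3 comparisons (x axis), with 95% intervals from limma as bars, filled points for genes past the 1.5-fold test at an adjusted p under 0.05 and dotted lines at 1.5-fold. Pck1, Ppargc1a and Pdk4 are to the right and Pcx and Slc37a4 to the left in the middle panel, and Pdk4 is the only gene whose called direction differs between the 2 tumor groups in the comparisons with NL.

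Pdk4, the kinase that shuts off pyruvate oxidation in fasting, was near 0 in c-MYC tumors and far above normal liver in c-MYC/FOXO1AAA tumors. The gene (chr6:5483351-5496309, minus strand) was at 1.14, 1.55, 0.852 and 1.38 FPKM in NL, 0.0313, 0 and 0.109 in c-MYC and 19.8, 22.6 and 24.5 in c-MYC/FOXO1AAA. The groups did not overlap, and the c-MYC values rested on 2, 0 and 7 reads, whereas c-MYC/FOXO1AAA had 1696, 2356 and 1672. The log2 fold change was 8.35 (± 0.45 SE, adjusted p = 2.57e-07) between the tumor groups and 4.17 (± 0.42 SE, adjusted p = 1.17e-05) in c-MYC/FOXO1AAA versus NL. In c-MYC versus NL it was -4.18 (± 0.42 SE, adjusted p = 1.69e-05). The sizes depend on the count added to low values. With 1 FPKM added in place of the prior count, they were 4.47 between the tumor groups, 3.39 in c-MYC/FOXO1AAA versus NL and -1.08 in c-MYC versus NL, and all stayed called. The c-MYC/FOXO1AAA mean of 22.3 FPKM ± 2.38 (SD, n = 3) was 1810% of the NL mean. Without c-MYC 3, the c-MYC mean of 0.0469 FPKM became 0.0157.

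Pdk2, the main kinase of this family in normal liver, was low in both kinds of tumor. The gene (chr11:95026258-95041354, minus strand) was at 104, 103, 97.4 and 94.4 FPKM in NL, 8.01, 13.7 and 6.42 in c-MYC and 7.07, 10.1 and 9.17 in c-MYC/FOXO1AAA. All tumor libraries were below all NL libraries, and the tumor groups overlapped. Pdk2 changed by -3.48 (± 0.22 SE, adjusted p = 6.89e-07) on the log2 scale in c-MYC versus NL and -3.51 (± 0.22 SE, adjusted p = 3.82e-07) in c-MYC/FOXO1AAA versus NL. Between the tumor groups it was -0.03 with a 95% interval of -0.55 to 0.49 (adjusted p = 1).

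Pdk1, a kinase known as a target of hypoxia signaling, did not pass the test in any comparison. The gene (chr2:71873224-71903858, plus strand) was at 31.7, 39.1, 35.3 and 32.9 FPKM in NL, 26.1, 24.3 and 25.0 in c-MYC and 33.4, 34.2 and 29.8 in c-MYC/FOXO1AAA. The c-MYC libraries lay below all others, and the other 2 groups overlapped. The log2 fold change was -0.46 (95% interval -0.68 to -0.25) in c-MYC versus NL, 0.37 (0.13 to 0.6) between the tumor groups and -0.1 (-0.31 to 0.12) in c-MYC/FOXO1AAA versus NL, and the adjusted p was 1 in each. Scaled to the same FPKM total, the changes against NL turned to 0.465 in c-MYC and 1.0 in c-MYC/FOXO1AAA, the latter past the threshold (adjusted p = 0.00259).

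The makeup of the kinase family thus differed in all 3 groups. In NL, Pdk2 took 71.5% to 75.6% of the summed FPKM of Pdk1 to Pdk4 and Pdk1 took 23.1% to 27.1%. In c-MYC, Pdk1 took 57.8% to 73.4%, Pdk2 18.8% to 32.5% and Pdk4 at most 0.321%. In c-MYC/FOXO1AAA, Pdk1 took 41.6% to 47.7%, Pdk4 28.2% to 34.2% and Pdk2 10.1% to 13.2%. Pdk3 took 0.278% to 0.433% in NL, 7.47% to 9.73% in c-MYC and 11.3% to 14.1% in c-MYC/FOXO1AAA. The summed level was 129 to 144 FPKM in NL, 34.1 to 42.1 in c-MYC and 70.1 to 76.7 in c-MYC/FOXO1AAA. These shares depend on the gene lengths. The authors' length for Pdk1 is 2972 bases, that of a transcript without a coding sequence, and with the longest coding transcript of 5185 bases Pdk4 took 35.4% to 41.6% and Pdk1 29.0% to 34.3% in c-MYC/FOXO1AAA. With that length, Pdk1 took 44.0% to 61.2% and Pdk2 27.4% to 43.1% in c-MYC.

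**Figure D3:**
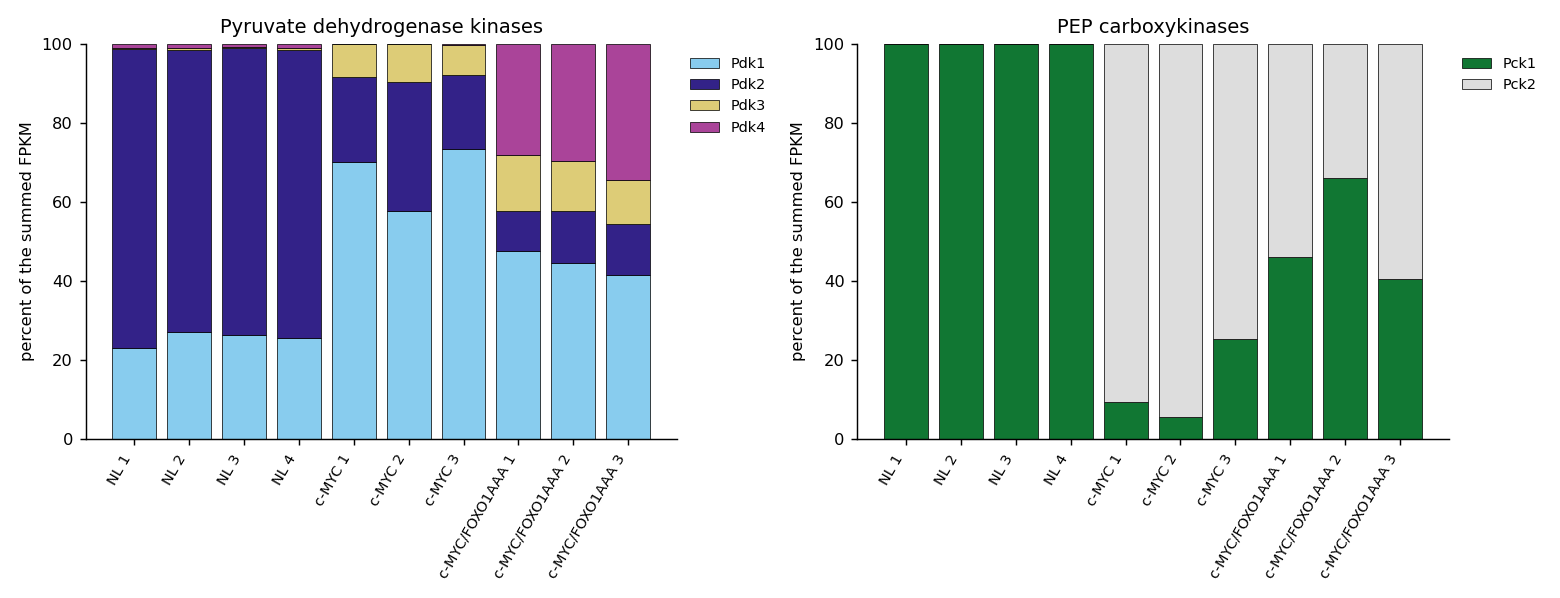
Share of each gene in the summed FPKM of its family in each of the 10 libraries (stacked bars from 0 to 100 percent), for the pyruvate dehydrogenase kinases and for the phosphoenolpyruvate (PEP) carboxykinases. Pdk2 and Pck1 fill most of the NL bars, Pdk1 and Pck2 most of the c-MYC bars, and Pdk4 takes 28.2% to 34.2% in the c-MYC/FOXO1AAA bars. With normal liver added at 0.577%, Pck2 would take 34.6% to 42.8% of the c-MYC bars.

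Ranked by level per length, Fbp1 and Pck1 led in NL with means of 1820 and 1420 FPKM, followed by Pcx and Slc37a4, whose ranges overlapped, then G6pc, Pdk2, Pdk1 and Ppargc1a, with Pdk4 and Pck2 lowest and overlapping. The authors' length for Fbp1 is 704 bases, and with the longest coding transcript of 1479 bases its mean would be 868 FPKM in NL, below Pck1, 6.07 in c-MYC, below Pdk2 and G6pc, and 9.52 in c-MYC/FOXO1AAA, below Slc37a4 and Pcx. In c-MYC, Pcx, Slc37a4 and Pdk1 led with means of 181, 95.7 and 25.1 FPKM and no overlap. Fbp1, Pdk2, G6pc and Pck2 followed, each overlapping the next, then Pck1, and last Ppargc1a and Pdk4, which overlapped. In c-MYC/FOXO1AAA, Pdk1 led at 32.5 FPKM ± 2.36 (SD, n = 3), and Pdk4, Fbp1, Slc37a4, Pcx, Pdk2, Pck1 and Pck2 followed with each neighbor overlapping, above G6pc and Ppargc1a. With the coding length, Pdk1 was at 18.6 FPKM in c-MYC/FOXO1AAA, below Pdk4 at 22.3.

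Small amounts of normal liver in a tumor sample carry the RNA of genes that are abundant in liver, so the c-MYC/FOXO1AAA levels were set against hepatocyte markers. The measure used the 6 of 44 markers with at least 100 FPKM in NL and under 0.1% of NL in c-MYC (Mup3, Cyp2c29, Ces3b, Hsd3b5, Car3 and Serpina3k). Their median excess over the c-MYC mean was 0.577% of NL in c-MYC/FOXO1AAA 1, from 0.24% for Cyp2c29 to 0.92% for Serpina3k. It was 0.783% in c-MYC/FOXO1AAA 2, from 0.306% for Ces3b to 1.5% for Serpina3k, and 0.465% in c-MYC/FOXO1AAA 3, from 0.18% for Cyp2c29 to 0.846% for Mup3.

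Pck1 exceeded the c-MYC mean by amounts within the range of the 6 markers in each library, and Fbp1 did so in the first and second library. The excess of Pck1 was 0.338%, 0.754% and 0.391% of NL in c-MYC/FOXO1AAA 1 to 3, and that of Fbp1 was 0.278%, 0.772% and 0.143%, the last below the lowest marker. Of the 44 hepatocyte markers, 24 were called higher and 8 lower with FOXO1AAA than with c-MYC alone, and 12 were not called. These calls are 72.7% of the list, against 28.7% of all genes (15.9% higher and 12.7% lower). The second library had the highest marker share and also the highest Pck1 and Fbp1. The median marker share is above the lowest marker of each library, and a smaller share was not tested. When the median marker share of NL was added to each c-MYC library, the log2 fold change in c-MYC/FOXO1AAA versus c-MYC became -0.27 for Pck1 (adjusted p = 1) and -0.25 for Fbp1 (adjusted p = 1). For Ppargc1a, whose excess was 5.83%, 7.46% and 11.8% of NL, it became 1.72 and was not called (adjusted p = 0.0736).

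The other called differences, those of Pdk4, Pcx and Slc37a4, could not be lost in this way, so the addition is no check of them. Pdk4 averaged only 1.23 FPKM in NL. Pcx and Slc37a4 had higher means in NL than in both tumor groups and were lower with FOXO1AAA. Pdk4 was at 1610% to 1990% of the NL mean in the c-MYC/FOXO1AAA libraries, and its log2 fold change with the share added was 8.19 (adjusted p = 1.44e-07). Pcx was at -4.06 (adjusted p = 2.96e-06) and Slc37a4 at -2.31 (adjusted p = 2.88e-06). G6pc moved to -1.93 and was not called (adjusted p = 0.0798).

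**Figure D4:**
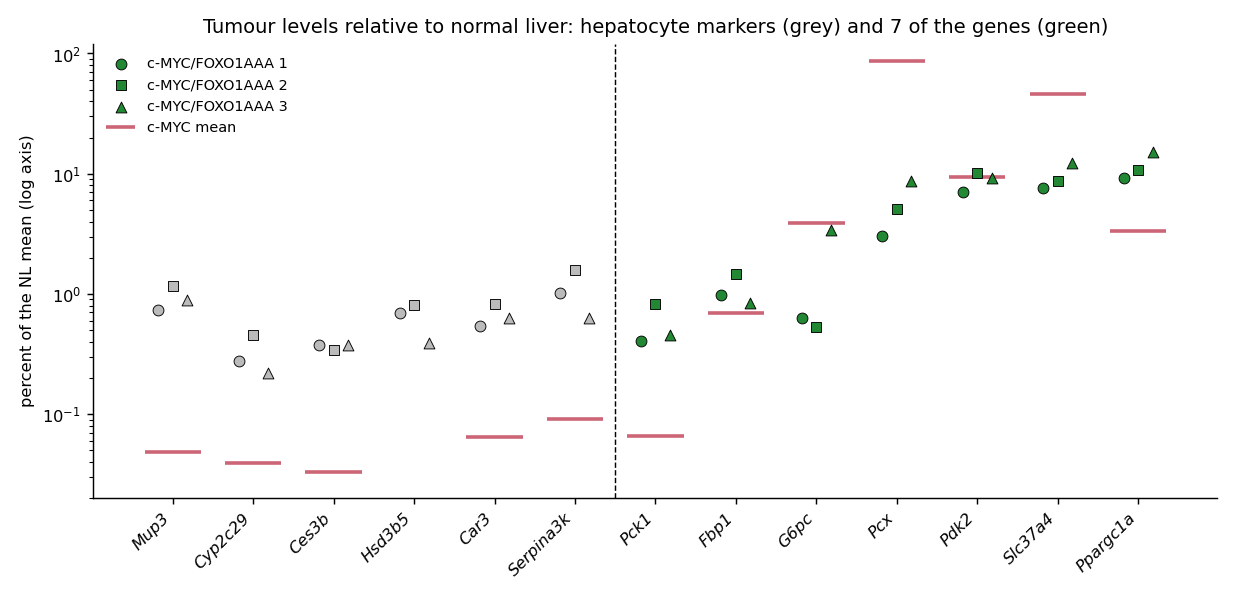
Level in the 3 c-MYC/FOXO1AAA libraries as a percent of the NL mean (log axis), for the 6 hepatocyte markers (grey) and 7 of the 10 genes (green), with the c-MYC mean as a line (Hsd3b5, at 0 in c-MYC, has none). Pck1 and Fbp1 lie in the band of the markers, Pcx, Pdk2, Slc37a4 and Ppargc1a lie above it, and G6pc lies in it in libraries 1 and 2 and above it, at 3.43%, in library 3.

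Markers of other cell types moved with the groups. The skeletal muscle list, 11 of whose 12 genes were in the table, summed to 0.653 to 1.49 FPKM in NL, 2.96 to 7.95 in c-MYC and 354 to 469 in c-MYC/FOXO1AAA, and Tnnt3, Acta1 and Mylpf were the most abundant there, with means of 160, 110 and 85.9 FPKM. Of the 9 tested, 8 (88.9%) were called higher between the tumor groups, against 15.9% of all genes. However, 7 of the 9 passed the filter through c-MYC/FOXO1AAA alone and so had to differ. Myod1, Myog, Myf5 and Mb were at 0 reads in all NL and c-MYC libraries, and none of the list was at 0 in c-MYC/FOXO1AAA. The stellate cell list (7 of 7 in the table) summed to 15.4 to 18 FPKM in NL, 6.66 to 21.1 in c-MYC and 133 to 212 in c-MYC/FOXO1AAA. Of the 6 tested, 4 (66.7%) were called higher between the tumor groups, against 15.9% of all genes. Most of the stellate sum was Des and Acta2, which muscle also expresses, with means of 62.7 and 64.5 FPKM in c-MYC/FOXO1AAA. Lrat, the marker of quiescent stellate cells, was at 6.67% of NL there, and Hhip was at or below 0.214 FPKM in all libraries. The remaining members Reln, Pdgfrb and Col1a1 were at 121%, 674% and 1240% of the NL mean there. In c-MYC they were at 1.85%, 119% and 406%, and Lrat was at 1.95%. Pdk4 and Ppargc1a are also expressed in skeletal muscle, and the part of these cell types in the levels of the 10 genes was not tested.

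The endothelial list (7 of 7) summed to 61.1 to 74.1, 11.2 to 19.3 and 28.9 to 43.7 FPKM in NL, c-MYC and c-MYC/FOXO1AAA, and the macrophage list (7 of 7) to 176 to 308, 50 to 61.1 and 40.9 to 67. In the same order the cholangiocyte list (5 of 6) gave 19.8 to 27.6, 17.3 to 32.1 and 29.9 to 37.8, and the lymphocyte list (4 of 7) 3.4 to 4.4, 3.39 to 4.63 and 0.748 to 2.07. The endothelial sum in c-MYC/FOXO1AAA was mostly Cdh5, with means of 4.58, 4.58 and 25.9 FPKM in the 3 groups. By their means, Clec4g, Lyve1 and Vwf were also higher there than in c-MYC, and Pecam1, Kdr and Stab2 were lower. The macrophage sum in NL was mostly Clec4f, with means of 208, 4.47 and 17.9 FPKM. In c-MYC, Csf1r, Marco and Vsig4 were also below NL by their means, and Cd68, Adgre1 and Timd4 were above it. The cholangiocyte sum also hides opposite changes, with Spp1 at means of 19.6, 1.47 and 25.5 FPKM and Epcam at 1.18, 15 and 1.94. By their means, Krt19 and Sox9 moved as Spp1 did and Krt7 as Epcam did. Fabp4, the fat cell marker that was in the table, was at 3.73 to 7.78, 14.6 to 34.6 and 7.7 to 20.7 FPKM. Kidney is another site of gluconeogenesis, and 3 of its 5 markers summed to at most 0.101, 3.03 and 0.78 FPKM. Their part was not tested.

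Genes of the pyruvate dehydrogenase complex, its other kinase and its phosphatases were called at 44.4% in c-MYC versus NL, against 48.1% of all genes. Of the 9 genes, 3 were higher and 1 was lower in c-MYC versus NL (median log2 fold change 0.06), and 1 was higher in c-MYC/FOXO1AAA versus c-MYC (median -0.48), which is 11.1% against 28.7% of all genes. Pdk3, the remaining kinase of the family, averaged 0.479 ± 0.0836 FPKM (SD, n = 4) in normal liver, 3.24 ± 0.782 FPKM (SD, n = 3) in c-MYC tumors and 9.24 ± 1.01 FPKM (SD, n = 3) with FOXO1AAA. On the log2 scale it differed by 2.61 (± 0.21 SE, adjusted p = 7.54e-06) in c-MYC versus NL and 1.52 (± 0.23 SE, adjusted p = 0.005) in c-MYC/FOXO1AAA versus c-MYC. The phosphatases, which reactivate the complex, differed in direction in c-MYC versus NL, with Pdp1 at 2.16 (± 0.39 SE, adjusted p = 0.00297) and Pdp2 at -1.65 (± 0.19 SE, adjusted p = 0.000367).

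Genes by which pyruvate, lactate, alanine, serine, tyrosine and glycerol enter the path included many called genes. Of 16 tested, 3 were higher and 10 lower in c-MYC versus NL (median -1.35), and in c-MYC/FOXO1AAA versus c-MYC 4 were higher and 9 lower (median -1.67). In each comparison 81.2% of the list was called, against 48.1% and 28.7% of all genes. In c-MYC versus NL, Tat, tyrosine aminotransferase, fell by 9.91 on the log2 scale (± 0.3 SE, adjusted p = 3.09e-09) and Aqp9, the liver glycerol channel, fell by 8.3 (± 0.5 SE, adjusted p = 3.17e-07). Without c-MYC 3, the c-MYC mean of Tat went from 0.897 to 0.555 FPKM and that of Aqp9 from 0.896 to 0.439. The glycerol channels Aqp3 and Aqp7 rose by 5.02 (± 0.43 SE, adjusted p = 4.35e-06) and 4.29 (± 0.74 SE, adjusted p = 0.00088). However, Aqp3 passed the filter on low values through its c-MYC libraries alone, so it had to be higher there than in both other groups. Aqp7 had 0 to 10 reads in NL, and its NL mean of 0.164 FPKM became 0.0993 without NL 1. Aqp3 was at 17.7 ± 7.79 FPKM (SD, n = 3) in c-MYC tumors and at 0.363 ± 0.177 FPKM (SD, n = 3) with FOXO1AAA, a log2 change of -5.37 (± 0.46 SE, adjusted p = 8.29e-06). Gpd1, the cytosolic glycerol 3-phosphate dehydrogenase, had a pattern like that of Pcx, with 131 ± 16 FPKM (SD, n = 4) in normal liver, 139 ± 8.04 FPKM (SD, n = 3) in c-MYC tumors and 7.66 ± 5.96 FPKM (SD, n = 3) with FOXO1AAA (4.25 without c-MYC/FOXO1AAA 3, log2 fold change between the tumor groups -4.44 ± 0.4 SE, adjusted p = 1.84e-05). Ldhb, a lactate dehydrogenase subunit, was higher by 2.54 (± 0.32 SE, adjusted p = 0.00037) and Aqp9 by 2.5 (± 0.53 SE, adjusted p = 0.0106) in c-MYC/FOXO1AAA versus c-MYC. Ldhb then stood at 71.6% of the NL mean and Aqp9 at 1.94%.

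A further list held carriers and enzymes that handle malate, aspartate and glutamate in mitochondria and cytosol, the malic enzymes included. Of 11 tested, 1 was higher and 5 lower in c-MYC versus NL (median -0.84), and in c-MYC/FOXO1AAA versus c-MYC 1 was higher and 3 lower (median -0.56). These are 54.5% and 36.4% of the list, against 48.1% and 28.7% of all genes. The malic enzymes differed in direction in c-MYC versus NL, where the cytosolic Me1 fell by 7.15 (± 0.31 SE, adjusted p = 2.36e-08) and the mitochondrial Me2 rose by 3.96 (± 0.24 SE, adjusted p = 4.34e-07) on the log2 scale. Me1 was higher by 2.3 in c-MYC/FOXO1AAA versus c-MYC (± 0.33 SE, adjusted p = 0.00102), at 3.45% of the NL mean. Slc25a10, the dicarboxylate carrier, fell by 1.49 in c-MYC versus NL (± 0.1 SE, adjusted p = 1.42e-05) and by a further 1.66 in c-MYC/FOXO1AAA versus c-MYC (± 0.11 SE, adjusted p = 1.32e-05). The aspartate-glutamate carrier Slc25a13 fell by 2.44 in the latter (± 0.19 SE, adjusted p = 1.07e-05).

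Steps shared with glycolysis included genes in both directions. Of 11 tested, 4 were higher and 3 lower in c-MYC versus NL (median 0.71), and in c-MYC/FOXO1AAA versus c-MYC 2 were lower and 9 did not pass (median -0.26). These are 63.6% and 18.2% of the list, against 48.1% and 28.7% of all genes. In c-MYC versus NL, Aldoa, the aldolase of muscle, rose by 2.36 (± 0.2 SE, adjusted p = 1.27e-05). Pgam1, phosphoglycerate mutase, rose by 1.59 (± 0.14 SE, adjusted p = 6.53e-05) and Pfkfb1, a liver enzyme that sets the balance of glycolysis and gluconeogenesis, fell by 3.6 (± 0.18 SE, adjusted p = 1.13e-07). With FOXO1AAA, compared with c-MYC alone, Aldoc fell by 1.61 (± 0.13 SE, adjusted p = 4.52e-05).

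Of 28 hormone receptors, transcription factors and cofactors of the fasting liver, 1 was higher and 13 lower in c-MYC versus NL (median -0.86), and in c-MYC/FOXO1AAA versus c-MYC 1 was higher and 7 lower (median -0.28). These are 50.0% and 28.6% of the list, close to the 48.1% and 28.7% of all genes. The gene higher in c-MYC was Kat2a, an acetyltransferase of PGC-1α, at 1.86 (± 0.19 SE, adjusted p = 9.63e-05), and Nr0b2, the nuclear receptor SHP, fell by 6.21 (± 0.78 SE, adjusted p = 7.99e-05), with a c-MYC mean of 0.994 FPKM that is 0.336 without c-MYC 3. Foxa1 fell by 4.67 (± 1.24 SE, adjusted p = 0.0117), with 2.35 FPKM ± 3.9 (SD, n = 3) in c-MYC, a mean that rests on 6.85 FPKM in c-MYC 1 and is 0.102 without it. The gene higher in c-MYC/FOXO1AAA was Foxo1, which was transfected. Onecut1, a liver transcription factor, fell by 4.24 (± 0.34 SE, adjusted p = 6.23e-06) in c-MYC/FOXO1AAA versus c-MYC, from 5.08 ± 0.977 FPKM to 0.249 ± 0.0971 FPKM (SD, n = 3 each).

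The tested genes whose log2 pattern over the 10 libraries was most like that of Pck1 were Ces1f, Keg1 and Ces1d, with root mean square differences of 0.291, 0.333 and 0.347. Ces1d, a carboxylesterase among the hepatocyte markers, averaged 796 FPKM in NL, 0.885 in c-MYC and 4.96 in c-MYC/FOXO1AAA. The genes most like Pdk4 were Kcnt2, Fam180a and Gpc1, at 0.53, 0.616 and 0.624. Kcnt2, a potassium channel gene, averaged 0.641, 0.0359 and 10.6 FPKM in the 3 groups. Gpc1, a glypican, averaged 1.01, 0.104 and 27.8.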

How the data were processed

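RNA-Seq was performed on 10 mouse liver or tumor samples, placed in their groups by title. The table was deposited as log2 FPKM per gene. The authors counted reads by gene and used edgeR in R. GRCm38 and FastQC 0.11.7 are named in the submitters' processing notes, and read counts by Ensembl gene were given symbols with org.Mm.eg.db. The aligner, the counting tool and the annotation release are not given in the sources used here. The deposited values contain a prior count scaled to each library, so whole reads were recovered by a search over gene lengths. Within 0.02 reads, 1 length gave whole reads for 16589 of 16697 gene entries (99.35%), and FPKM in the text are free of the prior count. Of 17069 entries, 372 (2.18%) have no gene and no value and were left out. Replicate pairs differed by more than sampling noise. The labels do not say that samples came from separate mice, so p-values measure the spread between these samples.

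Only genes reaching 1 FPKM in 3 or more libraries entered the fit (14017). Limma 3.58.1 (in R 4.3.3, with statmod 1.5.0) fitted a mean per group to the deposited log2 values of the 10 libraries. Its treat function, 2-sided, asked whether a change exceeded 1.5-fold, with trend and robust estimation and Benjamini-Hochberg adjustment. Limma took the place of the edgeR test of the study because the deposited unit is log2 and not a count. The script was tested on simulated data.

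The 10 genes and the lists were chosen with earlier results of these data known. In the pathway lists, the 2 called genes that changed most each way and had no overlap between groups are named, in c-MYC versus NL and c-MYC/FOXO1AAA versus c-MYC. For Pck1 and Pdk4, the 3 genes most alike by root mean square difference of centered log2 FPKM are named. Some results that this rule selects are not reported here. List genes without an entry (Gyk, G6pc2, Glp1r and some cell markers) were not analysed here. Positions are from GENCODE M21 on GRCm38, matched by symbol, and promoters from RefSeq, which held all 10 genes. Alternatives were other pseudocounts, filters, scalings and thresholds, the 2 groups alone, a replicate block, the removal of each library and a normal-liver share added to the c-MYC libraries. A voom fit on recovered reads, wider markers for the share, coding lengths and the Pck2 share with normal liver added were computed after seeing the data.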

Additional observations from a re-analysis of the deposited data

Results flagged for a closer look

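In 32 genes examined in the 4 NL libraries, the highest or lowest library stood apart from the others by Dixon's test at the 95% level for 1 gene, and chance flags about 1 in 20 groups. Fbp1 in NL 2 was at 2200 FPKM and the other NL libraries were at 1680 to 1730 FPKM, with a gap of 0.908 of the whole range. Groups of 3 were not tested.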

How the results depend on the processing

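Over 714 values of the 10 genes in 3 comparisons under the alternatives, 673 kept their direction and their side of the threshold, 22 lost a call, 5 gained one and 14 changed sign. The cause was not tested unless named. Scaled to the same FPKM total, c-MYC versus NL gave 0.698 for Pcx and 0.465 for Pdk1, c-MYC/FOXO1AAA versus c-MYC gave 0.138 for Pdk2, and c-MYC/FOXO1AAA versus NL gave 1.0 for Pdk1 (log2). This scaling moved the median of all genes from 0.083 to 1.011 in c-MYC versus NL, with 7061 higher and 1895 lower against 3435 and 3305, and from 0.213 to 1.311 in c-MYC/FOXO1AAA versus NL, with 8129 and 2099 against 4371 and 3728. Quantile normalization gave 0.423 for Pcx in c-MYC versus NL and 0.227 for Pdk1 in c-MYC/FOXO1AAA versus NL. Pdk2 in c-MYC/FOXO1AAA versus c-MYC was 0.275 without c-MYC 2, -0.266 without c-MYC 3 and 0.115 without c-MYC/FOXO1AAA 1. With the median, largest and wider-marker normal-liver share added, c-MYC/FOXO1AAA versus c-MYC gave -0.265, -0.666 and -0.263 for Pck1 and -0.251, -0.465 and -0.25 for Fbp1, and 3, 3 and 3 of the 10 genes were called in place of 5. With no fold-change threshold 8 were called.

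Ppargc1a in c-MYC/FOXO1AAA versus c-MYC was lost in 19 of 25 alternatives (adjusted p from 0.00054 to 1), and a pseudocount of 1 gave 0.25 on the log2 scale. All genes called in c-MYC/FOXO1AAA versus c-MYC numbered 4016, 2280 with a mean FPKM of at least 5 and 7688 with no threshold. In c-MYC versus NL they numbered 6740 and 10432 with no threshold, and in c-MYC/FOXO1AAA versus NL 8099 and 5211 with the mean FPKM filter, under which fewer genes were tested and Pck2 and Ppargc1a have no value. Leaving out a library gave 8 to 8, 4 to 5 and 9 to 9 of the 10 genes and 6385 to 6794, 3593 to 4022 and 7681 to 8161 genes in all. With the replicate number as a block, 8, 4 and 9 of the 10 genes were called (all genes 6407, 3852 and 7810). Samples of the same number had correlations of -0.04 to 0.027, so they share only a number, and the block changed no call other than that of Ppargc1a in c-MYC/FOXO1AAA versus c-MYC (adjusted p = 0.0532). At 0 to 88 reads, the c-MYC levels of Pdk4, Ppargc1a and Pck1 have wide counting error.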
